A study of Homo sapiens with 6 samples.

Results

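The 9 genes examined here were the cytokine LIF, its receptor chains LIFR and IL6ST, the related receptor IL6R, the kinases JAK1 and JAK2, the transcription factor STAT3, its inhibitor SOCS3, and the long non-coding RNA gene GBX2-AS1. They were taken by name from 63827 genes annotated by GENCODE release 44 on GRCh37 chromosomes 1 to 22 and X. Each was read at every annotated transcription start site (TSS), in 10 tiles of 1 kb upstream of the canonical TSS, and over the gene body. The 9 genes had 98 distinct promoter windows, each spanning 1000 bp before and 500 bp after a TSS, of 219871 in all. Neighbouring windows overlap, and the 98 fell into 33 separate runs.

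Whole-genome bisulfite sequencing reads the share of methylated cytosines at CpG dinucleotides. It was done on 6 libraries of H9, a long-established line of human embryonic stem cells. The 3 Conventional libraries came from cells grown with 10 ng/ml bFGF and 20% KSR. The 3 Reset libraries came from cells in t2iL+Gö, which holds 1 µM CHIR99021, 1 µM PD0325901, 5 µM Gö6983 and LIF. Reset cells had been made by transient expression of NANOG and KLF2 transgenes under 1 µM doxycycline, which was then withdrawn. All cells were kept on mouse embryonic fibroblast feeders in 5% oxygen. LIF is therefore a component of the Reset medium and not of the Conventional medium, and it differs together with every other component and with the transgene history, so that their effects cannot be told apart. The study calls the libraries biological replicates. Whether the Reset libraries came from separate resetting experiments is not given in the sources used here, so the spread between libraries may be partly technical. The p-values set a difference against this spread, moderated over features, or against counting error where that is larger.

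LIF is a secreted cytokine of the interleukin-6 family. It binds LIFR, which pairs with IL6ST (gp130), the signalling chain shared by the family, while IL6R pairs with IL6ST to bind interleukin-6. The Janus kinases bound to these chains phosphorylate STAT3, which enters the nucleus and binds palindromic DNA elements. SOCS3 is a direct STAT3 target that blocks the receptor and its kinases. In mouse embryonic stem cells this route sustains self-renewal. GBX2, a homeobox gene beside GBX2-AS1, is a target of LIF and STAT3 in those cells. Methylation of CpG-dense promoters is generally associated with silence, and bisulfite sequencing itself gives no measure of expression.

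The libraries held 70186287 to 97822789 methylation calls at CpGs, or 2.51 to 3.49 calls per CpG, with fewer in Reset. Methylated calls made up 84.3 to 84.6% of all calls in Conventional and 29.5 to 30.3% in Reset. This level is the sole check of the state labels within these libraries, and it is also the quantity under study. Marker expression in reset cells was reported by the study from qRT-PCR, immunostaining, immunoblotting and RNA-seq, which were not used here. A methylation level below is the percentage of methylated calls over all CpGs of a feature. Values are means ± SD of 3 libraries. A difference was called at an adjusted p under 0.05 in a quasi-binomial logistic model with limma-moderated dispersion and Benjamini-Hochberg adjustment over all features of that kind in the genome. An exact permutation test of 3 libraries against 3 cannot give a p below 0.1. Calls per library limit precision, and replicate SDs include this counting error. The part of mouse feeder DNA in the levels was not tested.

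A few short stretches with some of the widest differences described below, each in a larger region that also differed, are printed here from the GRCh37 reference, on the strand of the named gene, with every CpG in capitals. The first is the stretch of 300 bases with the largest fall near the JAK1 TSS, at chr1:65432927-65433226 on the minus strand, in an intron of JAK1 transcripts that start further upstream. The second covers coding sequence and intron of IL6R at chr1:154407238-154407537 on the plus strand. The third is the stretch with the largest rise upstream of GBX2-AS1, at chr2:237071795-237072094, in reference plus-strand orientation, where no gene is annotated. All 3 were chosen by their differences, which are given below as descriptions.
JAK1 upstream edge: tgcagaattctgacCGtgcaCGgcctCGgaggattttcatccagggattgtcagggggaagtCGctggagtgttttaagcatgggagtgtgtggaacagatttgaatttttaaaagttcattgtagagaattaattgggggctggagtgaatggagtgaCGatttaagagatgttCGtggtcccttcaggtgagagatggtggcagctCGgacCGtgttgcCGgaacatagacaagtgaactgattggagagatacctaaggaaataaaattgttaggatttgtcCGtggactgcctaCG
IL6R internal start: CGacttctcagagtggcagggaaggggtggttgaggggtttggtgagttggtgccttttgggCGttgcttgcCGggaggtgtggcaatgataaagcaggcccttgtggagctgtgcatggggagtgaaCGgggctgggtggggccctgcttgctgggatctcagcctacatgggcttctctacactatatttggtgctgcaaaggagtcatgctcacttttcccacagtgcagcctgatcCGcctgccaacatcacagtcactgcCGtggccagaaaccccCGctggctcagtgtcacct
GBX2-AS1 upstream: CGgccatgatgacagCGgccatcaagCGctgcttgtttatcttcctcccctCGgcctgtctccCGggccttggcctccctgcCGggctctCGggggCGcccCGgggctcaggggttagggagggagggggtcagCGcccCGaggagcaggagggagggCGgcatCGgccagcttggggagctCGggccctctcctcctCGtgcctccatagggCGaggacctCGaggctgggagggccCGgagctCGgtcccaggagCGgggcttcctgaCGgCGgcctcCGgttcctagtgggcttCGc

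Canonical promoters were compared first. Levels were lower in Reset at 4 of 9, namely LIF, LIFR, IL6R and JAK1, and higher at 0, while IL6ST, JAK2, STAT3, SOCS3 and GBX2-AS1 were not called. Over all canonical promoters tested, 85% were called lower and 2.5% higher. All 9 canonical windows were of the high CpG class, and among all promoter windows of that class 58.7% were called lower. The share of the 9 is therefore below either background, on few genes. Their median level was 4.33% in Conventional and 1.39% in Reset, against 7.56% and 2.12% over all windows of the high CpG class. Of the 9, 6 were under 10% in Conventional already, and 1 of these 6, LIFR, was called. Between 125 and 445 calls per library lay behind each of these levels.

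The promoter of LIF, the ligand, at chr22:30642249-30643748, was at 21.7, 20.7 and 28.8% in the Conventional libraries and at 14.2, 16.4 and 12.3% in the Reset libraries. All Reset libraries were below all Conventional ones. The level fell by 9.43 percentage points (23.7 ± 4.41 to 14.3 ± 2.05%, n = 3, adjusted p = 0.0107 in the logistic model). Within 500 bp of the TSS on either side the difference was 0.853 points (adjusted p = 0.752), so the fall came from the outer part of the window.

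LIFR, the LIF-binding receptor chain, had 8.65, 5.67 and 4.21% in Conventional and 0, 1.12 and 1.85% in Reset at chr5:38556249-38557748. The groups did not overlap, and the level fell by 5.19 points (adjusted p = 0.000321), or by 2.14 points as a mean of single-CpG levels. In the window of -500 to +500 bp it fell by 0.913 points, which was not called (adjusted p = 0.469). IL6ST, the shared signalling chain, was at 1.01, 0.858 and 1.75% in Conventional and 0.680, 0.336 and 1.41% in Reset. Those values overlapped, and the difference of -0.399 points was not called (adjusted p = 0.579). IL6R, the receptor of interleukin-6, was at 18.7, 17.9 and 23.3% in Conventional and 9.23, 5.79 and 4.88% in Reset. Every Reset library was lower, and the level fell by 13.3 points (20.0 ± 2.93 to 6.63 ± 2.30%, adjusted p = 3.12e-05). From -500 to +500 bp it fell by 5.62 points and was still called (adjusted p = 0.00184), unlike LIF, LIFR and JAK1.

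By summed calls over the window, JAK1 had the largest change among the canonical promoters. This kinase is bound to IL6ST. Its window at chr1:65431733-65433232 was at 28.6, 16.5 and 16.9% in Conventional and at 0.529, 1.38 and 0.355% in Reset. Conventional replicate 1 stood above the other two, and all Reset libraries were near 0. The level fell by 19.9 points (20.7 ± 6.89 to 0.754 ± 0.548%, adjusted p = 5.05e-08), or by 9.37 points as a mean of single-CpG levels, a measure by which IL6R fell by 11.2 points. JAK2, the other kinase, had 2.44, 1.20 and 1.44% against 1.40, 0.678 and 0.356%, values that overlap, and its difference of -0.882 points was not called (adjusted p = 0.148).

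STAT3 itself was at 1.18, 8.88 and 2.92% in Conventional and 1.07, 2.81 and 2.43% in Reset at chr17:40539961-40541460. Conventional replicate 2 was higher than the rest, the groups overlapped, and the difference of -2.23 points was not called (adjusted p = 0.127). Without that library it was 0.0510 points (adjusted p = 0.901), and without Conventional replicate 1 it was -3.80 points and was called (adjusted p = 0.0275). By Fisher's exact test on summed calls, which leaves out the spread between libraries, it was called as well (adjusted p = 0.0201). SOCS3, the feedback inhibitor, had 0, 0.965 and 0.917% in Conventional and 2.13, 1.55 and 0.488% in Reset, with overlap (adjusted p = 0.209). GBX2-AS1 had 1.65, 3.27 and 2.21% against 4.29, 1.69 and 3.01%, also with overlap (adjusted p = 0.616). Its canonical window overlaps GBX2, which lies on the opposite strand. With windows drawn from -2000 bp, which take in bases further upstream, 3 of these genes were called lower. IL6ST then fell by 11.4 points (adjusted p = 3.24e-06), JAK2 by 10.7 points (adjusted p = 1.34e-05) and STAT3 by 14.7 points (adjusted p = 8.94e-06). The share of all promoters called lower within those bounds is not given here.

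**Figure D1:**
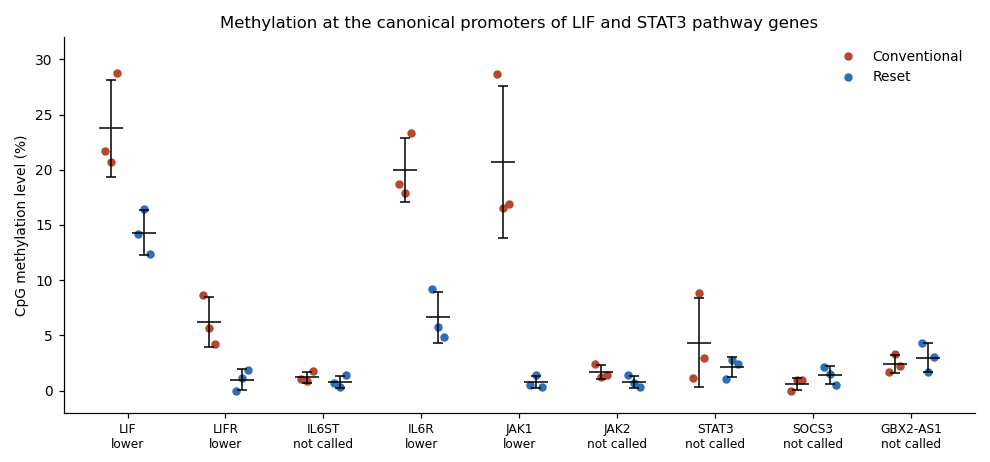
Methylation level (%) at the canonical promoter of each of the 9 genes, with 1 point per library, Conventional in red and Reset in blue, and the mean and SD of 3 libraries as black bars. Reset points lie below all Conventional points at LIF, LIFR, IL6R and JAK1, and JAK1 drops from 20.7 to 0.754%, while the other genes lie under 10% in both groups.

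Of all 98 promoter windows of the members, 97 could be tested. Levels were lower in Reset at 56, or 57.7%, and higher at 0, against 80.9% lower and 2.82% higher of all windows in the genome. Most windows of the members were of the high CpG class, in which 58.7% of all windows were lower. The 57.7% spans all classes, however. Every tested member window of the low or intermediate class was lower, so the members' share within the high class was below 57.7%. Many of the members' windows overlapped each other around the canonical starts of IL6ST and STAT3. Counted once per run of overlapping windows, by the start with most transcripts, 27 of 32 tested runs were lower, against 90.1% of all runs in the genome. At JAK2 that start was the one at -882 bp, which was called lower, and not the canonical one, which was not. Runs without a canonical TSS numbered 24, most of them downstream of it. The start sites of 1 gene often differed more from each other than the canonical promoters of different genes did.

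JAK1 showed this most plainly. The CpG-dense promoter at -101183 bp from the canonical TSS, at the outer end of the annotated gene, was at 0, 1.27 and 0.488% in Conventional and 2.46, 1.62 and 0.873% in Reset. Both states were near 0 there, and the 1.07-point difference was not called (adjusted p = 0.201). The canonical promoter fell as described, and 4 further runs inside the gene, from +97141 to +125291 bp, lay between 90.9 and 95.5% in Conventional, between 22.6 and 53.2% in Reset, and were all called lower.

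LIFR had starts at -51708 and -38758 bp that were methylated in Conventional, in contrast to its canonical promoter. The first was at 94.0, 100.0 and 92.3% in Conventional and 30.6, 22.2 and 21.7% in Reset (fell by 70.6 points, adjusted p = 3.55e-08). The second was at 91.2, 87.0 and 90.2% against 39.0, 35.2 and 34.9% (fell by 53.1 points, adjusted p = 5.48e-08). No library of 1 group reached the range of the other at either start. A start at -819 bp, whose window reaches into the edge of the CpG-dense stretch, fell from 29.2 ± 6.52 to 4.44 ± 3.23% (adjusted p = 1.25e-06). Internal starts at +25729, +53971 and +67401 bp lay between 91.6 and 96.9% in Conventional against 24.0 to 45.3% in Reset.

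IL6R held the largest fall of any promoter window tested among the members. The window of an internal start at +29310 bp was at 93.5, 96.7 and 94.1% in Conventional and at 14.4, 18.4 and 13.8% in Reset. The groups were far apart, and the level fell by 79.2 points (94.8 ± 1.73 to 15.6 ± 2.51%, adjusted p = 1.19e-11). Only 16.4% of its Conventional level remained, against a median of 39.4% over all windows in the genome at 50% or more in Conventional. The internal starts on either side, at +24000 and +48766 bp, kept 55.5 and 61.7%. These internal starts lie within the gene body, whose level outside promoter windows was 86.7% in Conventional and 37.3% in Reset. Within the +29310 bp window lies the IL6R stretch printed above, with 7 CpGs and at least 10 calls in a library. It was at 96.2, 100.0 and 76.5% in Conventional and 0, 3.45 and 10.0% in Reset.

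JAK2 had a start at -882 bp at 27.3, 25.8 and 28.1% in Conventional and 8.76, 8.33 and 4.03% in Reset (adjusted p = 4.73e-06), and one at -239 bp that fell from 7.68 ± 2.85 to 1.25 ± 0.571% (adjusted p = 0.000109). Both fell, whereas the canonical promoter was not called. Its internal start at +140693 bp held 2 CpGs and had too few calls for a test. The internal starts of IL6ST, from +12163 to +47369 bp, lay between 87.6 and 95.1% in Conventional against 26.8 to 51.0% in Reset, and those of STAT3, from +39926 to +70739 bp, between 88.2 and 95.7% against 26.8 to 57.0%. All of these were called lower. Around the canonical TSSs of IL6ST and STAT3, 4 of 14 and 1 of 19 overlapping windows were called lower. These windows are of the high CpG class, where 58.7% of all windows were lower. Windows of the same gene there share most of their CpGs. At IL6ST the called windows were those starting furthest upstream, at -59 bp for instance (2.59 ± 0.847 to 0.715 ± 0.618%, adjusted p = 0.0360). The STAT3 one, at -98 bp, rested on overlapping libraries (6.78 ± 4.38 to 2.75 ± 1.37%, adjusted p = 0.0350).

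**Figure D2:**
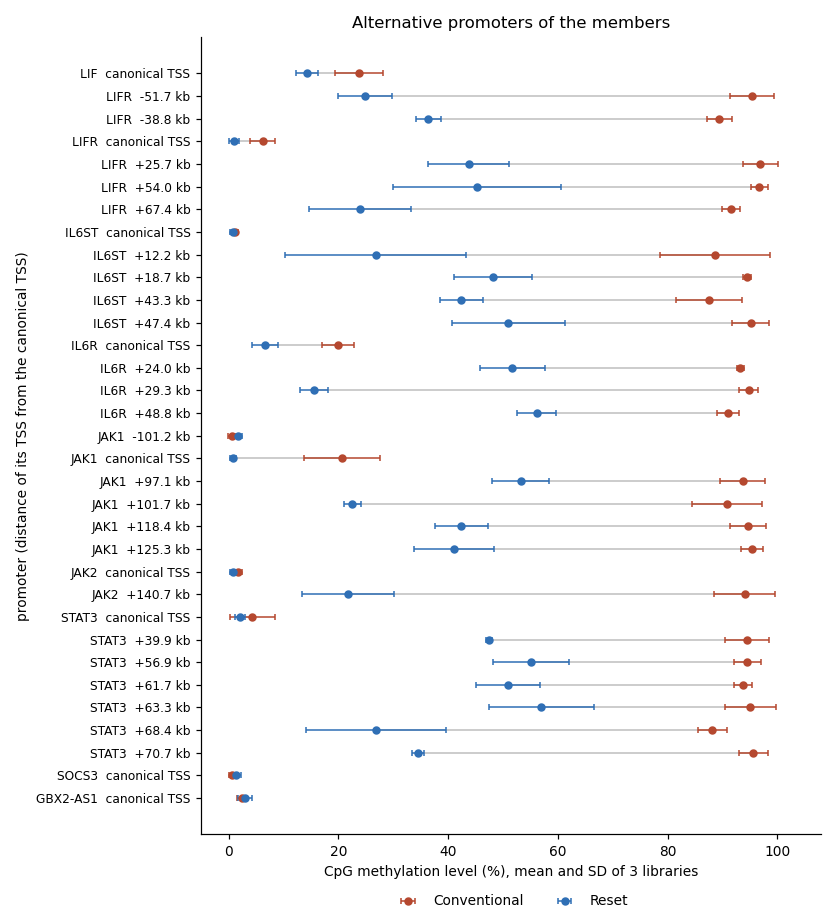
Mean methylation level (%) with SD of 3 libraries at each separate promoter of the 9 genes, ordered by gene and by the distance of its TSS from the canonical one, Conventional in red and Reset in blue. Where a run of windows holds the canonical TSS, that window is drawn, and otherwise the start with most transcripts. The canonical starts and the JAK1 start at -101183 bp lie at the left in both groups, and the other starts lie between 87.6 and 96.9% in Conventional and between 15.6 and 57.0% in Reset.

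The edges of the unmethylated stretches differed between the states at some of the genes and not at others. Upstream of LIF the lengths were 500, 250 and 250 bp in either state, and upstream of STAT3 they touched, with 1000, 750 and 1000 bp in Conventional and 1250, 1250 and 1000 bp in Reset. Around the JAK1 TSS, levels stayed under 20% for 500 bp upstream in each Conventional library and for 1250, 1000 and 1000 bp in the Reset libraries, read in bins of 250 bp. The stretch printed above, at -994 to -695 bp with 11 CpGs, was at 81.0, 85.1 and 90.9% in Conventional and at 0, 5.66 and 0% in Reset. From -500 to +500 bp the JAK1 difference was -0.555 points and was not called (adjusted p = 0.580). The change at the JAK1 promoter thus lay upstream of -500 bp.

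At IL6ST the stretch under 20% reached 1000 bp downstream of the TSS in each Conventional library and 3250, 3750 and 2750 bp in the Reset libraries. Upstream it reached 1000 bp in each Conventional library and 1250, 1250 and 1750 bp in Reset. At IL6R the upstream side measured 250 bp in each Conventional library and 500, 750 and 750 bp in Reset. On the sides given every Reset stretch was longer. The same held downstream of IL6R (1000 bp in each Conventional library against 1250, 2500 and 1250 bp in Reset), downstream of LIFR (1000, 1000 and 750 bp in Conventional against 1500, 1750 and 2000 bp in Reset) and upstream of JAK2 (1000 bp in each Conventional library against 1250, 1250 and 1500 bp). Downstream of JAK1 the lengths touched, with 1250 bp in each Conventional library and 2500, 1250 and 1750 bp in Reset. Such lengths were not measured over all genes, so no background share stands beside them. SOCS3 went the other way on its upstream side, with 1250, 1500 and 1500 bp in Conventional and 1250, 1000 and 1250 bp in Reset, values that touch. GBX2-AS1 had 1500 bp upstream in each Conventional library and 500, 1000 and 1000 bp in Reset, so every Reset stretch was shorter. These lengths are in steps of 250 bp and were not tested. Bins without a value were passed over. Downstream of IL6ST the Reset lengths cross such bins from 2250 bp on, and some of the bins read there held 1 CpG. The length of Reset replicate 3 crosses one at 1000 to 1250 bp as well. Other lengths also cross such bins, among them the 2500 bp downstream of IL6R in Reset replicate 2 and of JAK1 in Reset replicate 1. The bound of 20% was the same in both states, whose genome-wide levels differ.

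**Figure D3:**
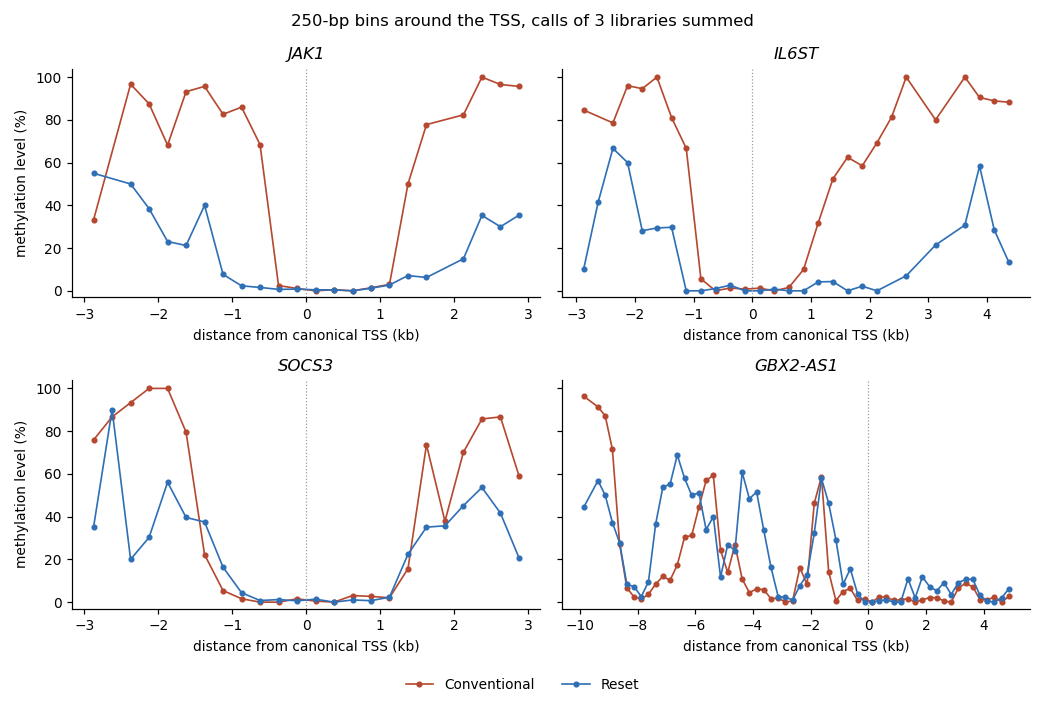
Methylation level (%) in bins of 250 bp around the canonical TSS (dotted line) of JAK1, IL6ST, SOCS3 and GBX2-AS1, from the summed calls of the 3 Conventional (red) or 3 Reset (blue) libraries, with distance in kb on the horizontal axis. Bins with few calls are left out. The low stretch is wider in Reset upstream of JAK1 and downstream of IL6ST, and the GBX2-AS1 upstream region holds bins where Reset lies above Conventional.

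The upstream tiles came next. Of 90 tiles, 80 had at least 10 calls in every library. Levels were lower in Reset at 66, higher at 5 and not called at 9, against 95.3% lower and 1.14% higher over all upstream tiles in the genome. In Conventional, 62 of the 80 tested tiles were at 50% or more, as were 460603 of 506330 in the genome. The tiles called higher were all under 50% in Conventional, and the share over such tiles in the genome was not computed. All 5 tiles called higher lay at GBX2-AS1. Of the 70 tested tiles of the other 8 genes, 65 were lower, 0 were higher and 5 were not called. The 5 higher tiles lie near each other at 1 locus and share their surroundings.

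The largest fall among tested tiles was in tile 10 of JAK2, 9 to 10 kb upstream, at 100.0, 91.4 and 82.4% in Conventional and 13.9, 20.6 and 14.3% in Reset, where the level fell by 75.01 points. The groups were far apart. Tile 8 of IL6R fell by 74.8 points and tile 6 of STAT3 fell by 73.9 points. JAK2 lost most upstream, with a median of 19.9% of the Conventional level left in its tiles at 50% or more in Conventional. That median was 37.9% for STAT3, 38.1% for JAK1, 41.8% for IL6R, 42.5% for LIFR, 48.7% for IL6ST, 49.9% for LIF and 52.2% for SOCS3, against 38.3% over all genes. It rests on 4 tested tiles for JAK2, where 5 of 10 tiles had too few calls.

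Tile 1, next to the TSS and shared with the promoter window, was low in both states at IL6ST, JAK2, STAT3, SOCS3 and GBX2-AS1 and was not called there. At JAK1 it was at 37.7, 25.9 and 38.5% in Conventional and 0.676, 2.17 and 0.781% in Reset. At LIF it was at 52.4, 48.6 and 66.7% against 26.9, 29.7 and 31.0%. In tile 1 the groups were apart at both genes.

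SOCS3 had a further low tile far from its TSS. Tile 6, inside its divergent neighbour SOCS3-DT, was at 27.5, 14.5 and 23.4% in Conventional and at 15.7, 17.2 and 36.1% in Reset. These values overlapped, with a difference of 1.15 points (adjusted p = 0.978). The tiles on either side, 5 and 7, fell by 28.6 and 38.9 points. LIF had a low tile as well, tile 10, at 32.6, 25.0 and 26.2% in Conventional and 11.0, 15.3 and 17.3% in Reset, where the groups were apart (adjusted p = 0.00987). By summed calls in bins of 250 bp, its fall lay at -10000 to -9750 bp (76.7% in Conventional, 25% in Reset). The levels were 18.5 and 26.7% from -9750 to -9500 bp, and 0 and 10.5% from -9500 to -9250 bp. From -9250 to -9000 bp both were 0%. These bins were not tested.

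Upstream of GBX2-AS1 the order of the states was turned over much of 8 kb. Tile 5 was at 9.46, 13.0 and 12% in Conventional and at 58.1, 47.0 and 46.2% in Reset, on at least 43 calls in a library. All Reset libraries were higher, by 39.0 points (11.5 ± 1.81 to 50.5 ± 6.67%, adjusted p = 1.66e-10). Tile 7 was at 22.1, 17.3 and 30.6% against 55.6, 52.6 and 60.4%, a rise of 32.9 points (adjusted p = 8.27e-08). Both exceeded every other difference in that direction among the members' tiles.

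Tile 4 was at 4.31, 3.25 and 3.57% in Conventional and 21.7, 13.6 and 33.6% in Reset (rise of 19.2 points, adjusted p = 2.99e-09). Tile 8 was at 7.33, 6.73 and 3.31% against 19.7, 16.3 and 34.7% (rise of 17.8 points, adjusted p = 1.62e-06). In these 2 tiles Reset replicate 3 was highest and Reset replicate 2 lowest. Tile 2, which lies within GBX2, was at 16.1, 22.2 and 22.4% against 39.5, 36.97 and 31.6% (rise of 15.8 points, adjusted p = 2.06e-05). The groups did not overlap in any of the 5.

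Tiles 1, 3, 6 and 9 of GBX2-AS1 were not called. Tile 3, which overlaps the end of GBX2, was at 5.66 ± 1.94 and 4.12 ± 1.16%, and tile 6 at 45.5 ± 14.1 and 33.8 ± 7.85%. Tile 10, at the outer end, was at 96.9, 87.5 and 94.8% in Conventional and 61.2, 50 and 36.96% in Reset, where it fell by 43.7 points (adjusted p = 2.02e-10). The called rises therefore alternated with tiles that were not called, in 3 of which (3, 6 and 9) the Reset mean was the lower one. The GBX2-AS1 stretch of 300 bases printed above held 24 CpGs, with at least 11 calls in a library. It was at 9.68, 0 and 5.00% in Conventional and 63.6, 45 and 75% in Reset. With the promoter drawn from -2000 bp, which takes in tile 2, all 4 GBX2-AS1 windows were called higher, by 4.13 points at the canonical TSS (adjusted p = 0.0273). These windows share most of their bases, and the share of all promoters called higher within those bounds is not given here.

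**Figure D4:**
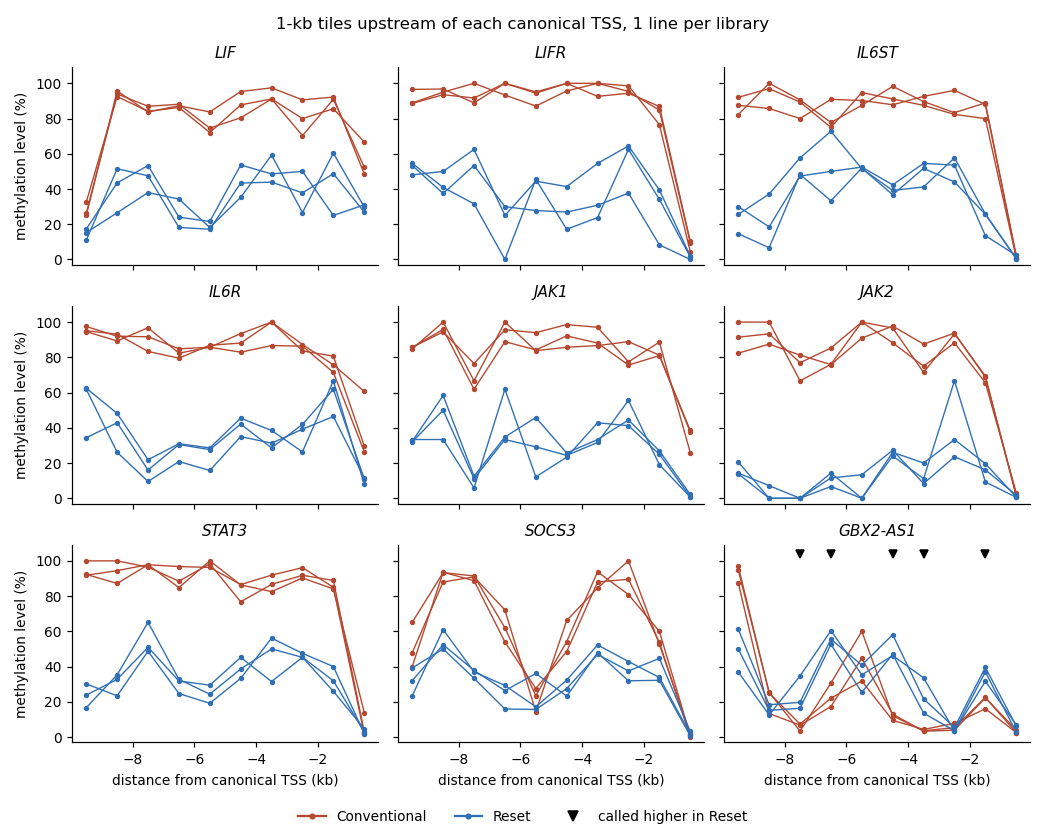
Methylation level (%) of the 10 upstream tiles of 1 kb of each gene by distance from the canonical TSS in kb, with 1 line per library, Conventional in red and Reset in blue, and black triangles above tiles called higher in Reset. Tiles with fewer than 10 calls in a library are drawn but were not tested. Away from the TSS, Reset lines run below Conventional lines at 8 genes, except in tile 6 of SOCS3 where they mix, and the 5 triangles stand at GBX2-AS1.

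Gene bodies, taken without the promoter windows, were lower in Reset in all 9 genes, where 97.2% of all bodies were called lower. JAK2 went from 90.7 ± 0.122 to 32.3 ± 1.36% and LIFR from 90.4 ± 0.173 to 33.8 ± 0.781%. JAK1 went from 84.9 ± 0.145 to 35.4 ± 0.589%, IL6R from 86.7 ± 0.742 to 37.3 ± 0.0559%, STAT3 from 88.9 ± 0.440 to 39.1 ± 1.21% and IL6ST from 89.8 ± 0.998 to 41.3 ± 2.74%. In these 6 genes, 35.6 to 46.0% of the Conventional level remained, around the median of 39.4% over all bodies at 50% or more in Conventional.

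LIF kept more, with 79.0, 75.7 and 79.0% in Conventional and 47.1, 44.2 and 37.8% in Reset. The 55.3% that remained lies at the 95.1th percentile of all bodies at 50% or more in Conventional. SOCS3, a short gene of 3300 bp, had a body at 26.4, 25.6 and 26.0% in Conventional and 17.5, 17.1 and 20.4% in Reset. It fell by 7.67 points, the least of the 9 (adjusted p = 0.00329), and kept 70.5% of its low Conventional level, the largest share among the 9 bodies. The GBX2-AS1 body went from 66.9 ± 1.20 to 27.3 ± 0.817%.

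Bodies were also split into bins of 1 kb, a division added after the values had been seen. Of 662 tested bins, 648 were lower, 4 were higher and 10 were not called, against 98.9% lower and 0.281% higher of all body bins. In Conventional, 636 of the 662 were at 50% or more, as were 1332267 of 1357013 in the genome. The bins called higher were all under 50% in Conventional, and the share over such bins in the genome was not computed. The 4 higher bins all lay at the start of GBX2-AS1, within 13 kb of it. Bin 3 was at 0.629, 0.917 and 2.35% in Conventional and 8.51, 4 and 10.1% in Reset (adjusted p = 9.17e-05). Bin 2, just upstream of the GBX2 start, was at 1.02, 1.54 and 0% against 3.46, 4.43 and 6.27% (adjusted p = 0.000115). Reset libraries were higher throughout these 2 bins, at levels that stayed under 11%. In the other 2, bins 12 and 13, libraries of the groups overlapped.

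Other genes of the pathway were read at their canonical promoters from a list of 52. Levels were lower in Reset at 30, higher at 2 and not called at 20, with a median of 7.10% in Conventional and 2.01% in Reset, and 28 of the 52 were under 10% in Conventional. Over all canonical promoters 85% were called lower and 2.5% higher, with medians of 85.3 and 23.3%. Of the 52, 38 were of the high CpG class, and of these 20 were lower and 2 higher, against 59.2% lower and 5.92% higher of all canonical promoters of that class. The share of the list called lower is thus below that of all canonical promoters, and within the high CpG class it is near the background. By role, 5 of 8 ligands, 4 of 6 receptors, 2 of 2 kinases, 3 of 6 STAT factors, 7 of 14 inhibitors, 2 of 4 adaptors and 7 of 12 targets were lower. EBI3, a receptor-like soluble chain of the interleukin-27 cytokine, was listed with the receptors. The inhibitors had a median of 4.53% in Conventional and the targets 3.34%, below the 29.96% of the ligands and the 19.1% of the receptors. The roles differed in CpG class, however. All targets and all inhibitors but PTPN6 were of the high class, and most ligands were not. Over all promoter windows the Conventional median was 7.56% in the high class, 89.2% in the intermediate and 90.7% in the low. Roles were not compared within a class.

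The largest falls among them were at the cytokine OSM (94.0 ± 2.66 to 37.4 ± 10.6%, adjusted p = 2.37e-08), the phosphatase PTPN6 (92.7 ± 2.13 to 39.0 ± 4.02%), the receptor IL31RA (94.8 ± 3.78 to 45.2 ± 8.31%), the cytokine IL27 (93.1 ± 1.81 to 52.2 ± 8.82%) and the cytokine CTF1 (42.5 ± 5.32 to 8.91 ± 4.47%). Among promoters at 50% or more in Conventional, CNTF kept most, with 62.9 ± 5.70% of 94.4 ± 2.16%, or 66.6% of its level. EBI3 kept 60.9% and IL27 kept 56.1%. The EBI3 fall of 21.2 points (adjusted p = 0.00812) was not called without Reset replicate 2 (fell by 15.8 points, adjusted p = 0.0596). From -500 to +500 bp the CTF1 level was 4.34 points higher in Reset (adjusted p = 0.0405), so its fall lay outside these bounds.

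The promoters called higher were those of CLCF1, a cytokine that signals through the CNTF receptor, and CNTFR, that receptor's binding chain. CLCF1 was at 4.08, 0.637 and 3.01% in Conventional and 6.58, 6.61 and 7.85% in Reset (adjusted p = 0.00983). CNTFR was at 2.61, 1.73 and 1.89% against 4.08, 5.74 and 5.38% (adjusted p = 0.00881). All Reset libraries were higher at both, by 4.44 and 2.99 points, on levels that stayed under 8%. Without Conventional replicate 2 CLCF1 was no longer called (3.47 points, adjusted p = 0.0667), and from -500 to +500 bp neither was called, with differences of -0.908 points at CLCF1 and -0.0843 at CNTFR. TFCP2L1 and KLF4, transcription factors downstream of STAT3 in mouse embryonic stem cells, were picked after their values had been seen. TFCP2L1 fell from 22.7 ± 1.47 to 3.74 ± 1.81% (adjusted p = 1.34e-07), and KLF4 was at 0.926 ± 0.802 and 0.954 ± 0.321% (adjusted p = 0.888).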

How the data were processed

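Whole-genome bisulfite libraries of H9 cells (3 Conventional, 3 Reset) were amplified with 11 PCR cycles. The authors trimmed reads with Trim Galore, aligned them to GRCh37 with Bismark (0.9.0 in the submitters' processing notes, which also name Bowtie2) and deposited counts of methylated and unmethylated calls per cytosine, not normalized. Removal of duplicate reads is not given in the sources used here, so PCR copies may be counted more than once.

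Positions in the files were counted from 0, with 99.8% at reference CpGs, and are printed here counted from 1. Calls on both strands of a CpG were summed, with no filter on single CpGs. Where each library gave 10 calls or more, a feature entered a quasi-binomial logistic model of the 2 groups (F test, two-sided, dispersion squeezed with limma 3.58.1 and kept at 1 or more). P-values were adjusted by Benjamini-Hochberg over all features of a kind, with a threshold of 0.05. CpG class used stretches of 500 bp (high: GC from 55% and observed over expected CpG from 0.75; low: none over 0.48). Python 3.11.15 and R 4.3.3 were used.

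The 9 genes, the list of 52 and the tests were chosen with earlier results of these data known. Named were all 9 genes, every tile or listed promoter called higher, the largest falls, and the listed promoters that kept most. Alternatives were a minimum of 5 or 20 calls, CpGs over 50 calls left out, Fisher's exact test, a replicate block, each library left out, means of single-CpG levels, other promoter bounds and other choices of TSS.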

Additional observations from a re-analysis of the deposited data

How the results depend on the processing

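Counts for the members' promoters depended on the window and on how starts were counted. Lower in Reset were 35 of 95 with the promoter from -500 to +500 bp, 92 of 98 from -2000 to +500 bp, 4 of 9 with canonical starts alone and 27 of 32 with 1 window per run, against 56 of 97 as reported. Higher were 4 from -2000 to +500 bp. For the list of 52, 14 promoters were lower and 3 higher from -500 to +500 bp, and 41 lower and 2 higher from -2000 to +500 bp. These settings differ in which bases or windows they hold. The shares over all promoter windows within the other bounds are not given here, so the counts from -500 or -2000 bp have no background beside them. Leaving out each library in turn gave 51 to 74 promoters, 65 to 69 tiles and 9 bodies of the members lower, 0 promoters and 5 tiles higher, and 26 to 30 listed promoters lower and 1 to 2 higher, the 1 being without Conventional replicate 2, when CLCF1 was not called.

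With the replicate block, 56 member promoters, 66 tiles and 9 bodies were lower, 5 tiles were higher, and 28 listed promoters were lower and 2 higher. No named call changed under it. Deviations of same-numbered libraries correlated at 0.000607 to 0.00271, and those of different-numbered libraries at -0.0046 to 0.00231. These values show no sign of pairing by number. The deviations include counting error, which can hide a shared deviation, so whether the numbers pair the libraries cannot be decided from them.

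Differences that changed sign were those of promoters near 0 or with a methylated edge. From -500 to +500 bp they were 0.853 points at LIF, 0.0583 at JAK2, 0.311 at STAT3, -0.0113 at GBX2-AS1, 4.34 at CTF1, -0.908 at CLCF1 and -0.0843 at CNTFR. From -2000 to +500 bp they were -2.21 at SOCS3, -8.85 at the outer JAK1 start and -0.843 at KLF4. With 1 library left out, the STAT3 difference ranged from -3.80 (without Conventional replicate 1) to 0.0510 (without Conventional replicate 2), and that of GBX2-AS1 from -0.0260 (without Reset replicate 1) to 1.27 (without Reset replicate 2). That of KLF4 ranged from -0.435 (without Conventional replicate 2) to 0.259 (without Conventional replicate 1) and was -0.155 without Reset replicate 2. As means of single-CpG levels, 8 named values moved by more than the spread between libraries, all in the same direction as before, and those of LIFR, JAK1 and TFCP2L1 became -2.14, -9.37 and -12.8 points. Of 832 recomputed values of named features, 799 kept direction and side of the threshold or stayed within the spread between libraries. Depth, at 2.51 to 3.49 calls per CpG in a library, left 10 tiles and 1 promoter window untested.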
